A study of Sus scrofa with 6 samples.

Results

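Both mature arms of the microRNA (miRNA) hairpin miR-126, ssc-miR-126-3p and ssc-miR-126-5p, were followed through small RNA libraries of pig skin. They were taken by name and are 2 of the 898 miRNAs in the deposited table, 280 of them with porcine miRBase-style names and the rest with predicted identifiers. The skin was that of Xiang pigs (Sus scrofa), a Chinese miniature breed, and was cleared of hair and kept frozen in the preservative RNAwait. The 3 libraries S02, S06 and S07 came from white skin and the 3 libraries S03, S04 and S05 from black skin, and the labels name no genotype, age, sex, body site or animal. The samples of a group are not said to be separate animals, so the p-values may reflect technical spread alone. The series was made to find miRNAs that bear on melanin formation, and the comparison here asks how miR-126 differed between the skin colours.

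A miRNA hairpin is cut into a duplex whose strands, the 5p and the 3p arm, can each be loaded into an Argonaute protein and then repress messenger RNAs that match the seed near their 5′ end. In mammals miR-126 is encoded in an intron of EGFL7, a gene for a protein secreted by endothelial cells, and it is among the most endothelium-enriched miRNAs. It is also found in platelets and blood progenitor cells. The 3p arm is known for repressing SPRED1 and PIK3R2, brakes on the response to vascular growth factor, and the adhesion molecule VCAM1. The 5p arm is known for repressing the Notch ligand DLK1 in endothelial cells. The RefSeq table of Sscrofa11.1 lists MIR126, 73 bases long, at 1108695 to 1108767 on sequence not placed on a chromosome, and EGFL7 at 1107088 to 1119033, so the hairpin's interval falls inside that of EGFL7. The table does not name the unplaced scaffolds, and whether both intervals are on the same one was not checked here.

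The 3p arm was one of the leading miRNAs of this skin, and it was higher in black skin. Values are RPM, the reads of a miRNA per 1e+06 reads of all listed miRNAs. In white skin ssc-miR-126-3p measured 17069 RPM in S02, 17469 in S06 and 23639 in S07. In black skin it measured 35029 RPM in S03, 30831 in S04 and 28566 in S05. Every black library was above every white one, and S07 was the white library nearest to the black group. The group means were 19392 ± 3683 RPM for white and 31475 ± 3279 RPM for black libraries (SD, n = 3 each), 1.62-fold higher in black skin. The lowest black library was 1.21 times the highest white one.

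The 5p arm, the minor product of the hairpin, was also higher in black skin. ssc-miR-126-5p measured 252.5 RPM in S02, 167.2 in S06 and 260.3 in S07 of white skin. In black skin its level was 421.5 RPM in S03, 397.0 in S04 and 423.7 in S05. The groups did not overlap, the black libraries lay within 1.07 times of each other and S06 stood lowest of all 6. The means were 227 ± 51.7 RPM for white and 414 ± 14.8 RPM for black libraries (SD, n = 3 each), 1.83-fold higher in black skin, and the lowest black library was 1.53 times the highest white one. The listed miRNAs of a library summed to 6454685 to 10165949 recovered reads, with 112760 to 271330 reads of the 3p arm and 1079 to 3664 of the 5p arm. With 1079 reads in S06, the 95% Wilson interval of the 5p level ran from 157 to 177 RPM, and in S07 from 251 to 270 RPM. Such intervals cover counting error only, and between the white libraries S06 and S07 the 5p arm differed by more than that error.

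**Figure D1:**
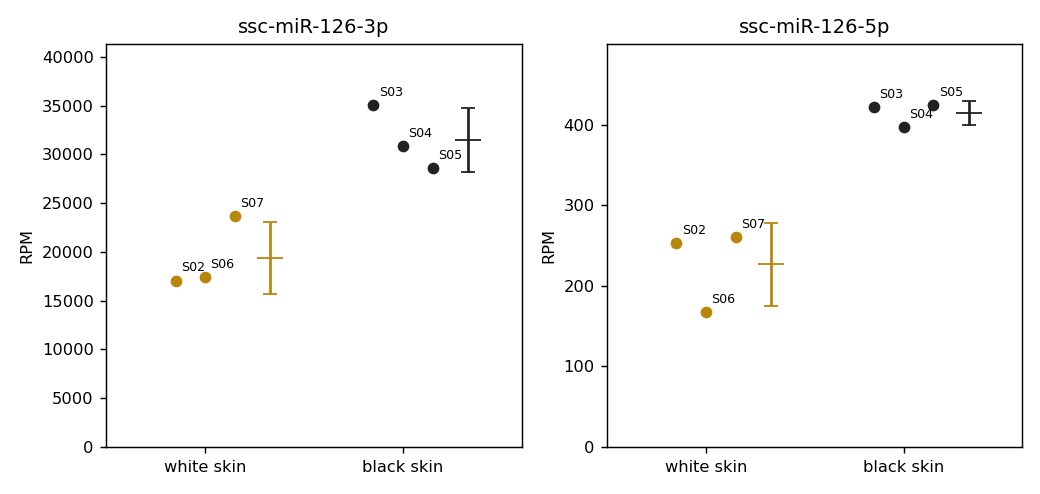
RPM of ssc-miR-126-3p (left) and ssc-miR-126-5p (right) in each library of white and black skin, with points for libraries and bars for the group mean ± SD (n = 3). The black libraries lie at 28566 to 35029 RPM for the 3p arm and 397.0 to 423.7 RPM for the 5p arm, above all white libraries.

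Both arms rose in black skin by the test across miRNAs, which was made for 454 of the 898 after a filter on low counts that both arms passed. On the log2(RPM + 1) scale ssc-miR-126-3p was higher by 0.71 (standard error 0.18, 95% interval 0.31 to 1.11) and ssc-miR-126-5p by 0.89 (standard error 0.22, 95% interval 0.39 to 1.39). The Benjamini-Hochberg adjusted p was 0.0423 for each arm (limma). By the same rule 32 of the 454 tested (7.05%) were called, 18 of them (3.96%) higher in black skin. The groups were free of overlap, with the black libraries higher, for 61 of the 454 (13.4%). The change of the 3p arm was smaller than that of 61 tested miRNAs, and that of the 5p arm smaller than that of 44. The median change of all tested was 0.00. For the sum of both arms, 19619 ± 3710 RPM for white and 31889 ± 3281 RPM for black libraries (SD, n = 3 each), a two-sided exact permutation test gave p = 0.1, the smallest that 3 against 3 libraries allow.

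The calls lay close to the threshold of 0.05. The estimates were above 0 in all fits run. With every black library above every white one, leaving out a library could not reverse that sign. The 3p call held without S07 (limma adjusted p = 0.0407) and was lost without S02 (0.0792), S06 (0.140), S03 (0.159), S04 (0.0951) or S05 (0.109). The 5p arm passed without S02 (adjusted p = 0.0416) and missed the threshold without S06 (0.116), S07 (0.0630), S03 (0.142), S04 (0.0891) or S05 (0.143). With all libraries, edgeR on recovered reads gave an adjusted p of 0.0795 for the 3p and 0.0528 for the 5p arm, and DESeq2 gave 0.129 and 0.0403. As skin was sequenced in bulk, a difference in the number of cells that make miR-126 and one in the amount per cell cannot be told apart.

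**Figure D2:**
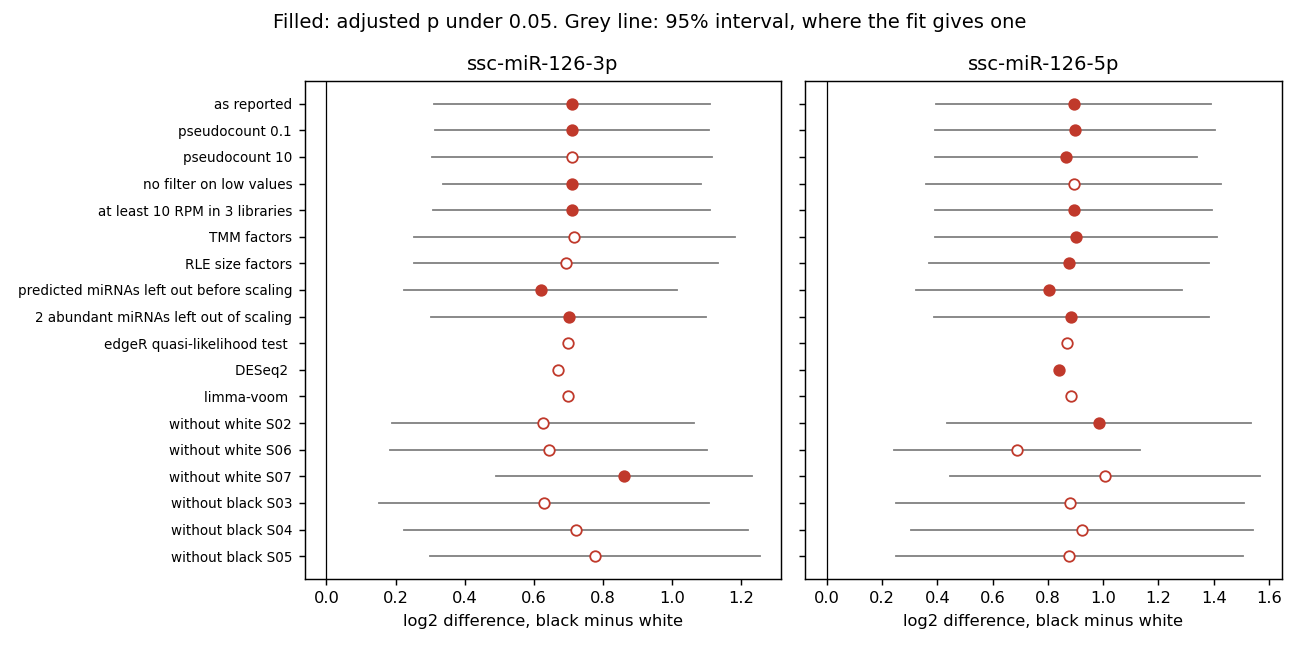
Difference of each miR-126 arm between black and white skin (log2, horizontal axis) as reported and under each other setting or without each library (vertical axis). Filled points have an adjusted p under 0.05, grey lines are 95% intervals where the fit gives one, and points range from 0.62 to 0.86 for the 3p and from 0.69 to 1.01 for the 5p arm.

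The 3p arm ranked 13th to 15th among all miRNAs in the white libraries and 9th or 10th in the black ones. It made up 1.71% to 2.36% of the listed miRNA reads of a white library and 2.86% to 3.50% of those of a black one. By mean RPM over the 6 libraries it was 10th, between ssc-miR-99a (32914 RPM) and ssc-let-7c (24199 RPM). ssc-let-7c, a let-7 family member, moved the other way and fell in black skin by 0.73 (limma adjusted p = 0.0318), so that the 2 changed places between the groups. Its mean was 30161 RPM in the white libraries and 18237 RPM in the black ones. ssc-miR-99a differed by -0.01 (adjusted p = 0.971). Over the 6 libraries the ranges of all 3 overlapped, with 17069 to 35029 RPM for ssc-miR-126-3p, 28813 to 39787 for ssc-miR-99a and 16685 to 32530 for ssc-let-7c. Of the 17 tested miRNAs with a mean of at least 10000 RPM, 2 were called higher in black skin, ssc-miR-126-3p and ssc-miR-143-3p, and 1 lower, ssc-let-7c. Among all 454 tested, 3.96% were called higher and 3.08% lower.

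The 5p arm was 94th by mean RPM, between ssc-miR-15b (327 RPM) and ssc-miR-24-1-5p (308 RPM), and its rank ran from 80 in S03 to 111 in S06. Neither neighbour passed the test, with differences of -0.33 for ssc-miR-15b (limma adjusted p = 0.390) and 0.40 for ssc-miR-24-1-5p (adjusted p = 0.347). All 3 overlapped in level over the 6 libraries.

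**Figure D3:**
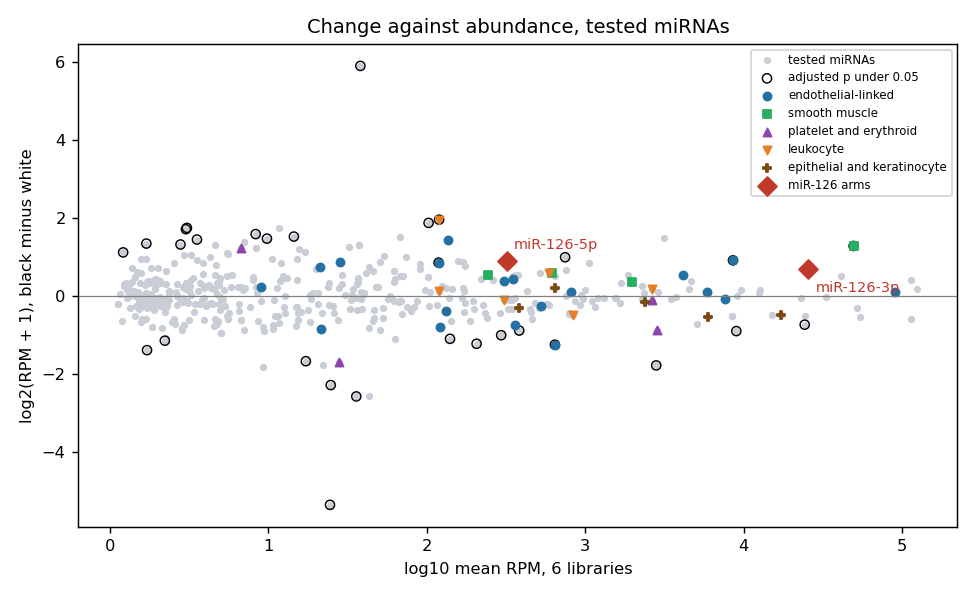
Difference between black and white skin (log2(RPM + 1)) against log10 mean RPM for the 454 tested miRNAs, with called miRNAs ringed, listed miRNAs coloured and the miR-126 arms as red diamonds. The 2 arms lie at differences of 0.71 and 0.89, far apart in abundance.

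The arms rose together, and no shift in their ratio between the colours was found. Per read of the 5p arm there were 67.6 reads of the 3p arm in S02, 105 in S06 and 90.8 in S07 of white skin. In black skin the ratio was 83.1 in S03, 77.7 in S04 and 67.4 in S05. The groups overlapped, and the white libraries S02 and S06 held nearly the whole range. The 5p arm thus made up 1.46% of the miR-126 reads in S02, 0.948% in S06 and 1.09% in S07, and 1.19%, 1.27% and 1.46% in S03, S04 and S05. The Wilson interval of S06 (0.893% to 1.01%) did not reach that of S07 (1.05% to 1.13%), and that of S02 (1.39% to 1.53%) lay above both, so white libraries differed by more than counting error. On the log2 scale the ratio was 6.42 ± 0.32 for white and 6.24 ± 0.15 for black libraries (SD, n = 3 each). The difference of -0.18 had a standard error of 0.25 and a 95% interval of -0.73 to 0.37 (limma over 41 hairpins with both arms tested, adjusted p = 0.703). The two-sided exact permutation p was 0.4. With these libraries, true shifts of the log2 ratio anywhere from -0.73 to 0.37 were not excluded at the 95% level. Without S02 the difference was -0.36 (adjusted p = 0.415) and without S06 -0.05 (adjusted p = 0.910).

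Among the 41 hairpins the ratio was called for 5 (12.2%), and miR-126 was not one of them. The 3p arm was the major one in 17 hairpins, and miR-126 had the fourth highest 3p to 5p ratio. With a geometric mean of 80.6 it lay between miR-143 (187) and miR-148b (57.2). The absolute change of the ratio was smaller than that of miR-126 in 12 hairpins. In 2 hairpins both arms were called, higher in black skin for miR-126 and lower for miR-10a, whose gene sits in the HOXB cluster. In 5 hairpins 1 arm was called and in 34 none. The arms of 3 hairpins were both higher in black skin with no overlap between the groups, and these were miR-126, miR-374a and miR-129a.

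**Figure D4:**
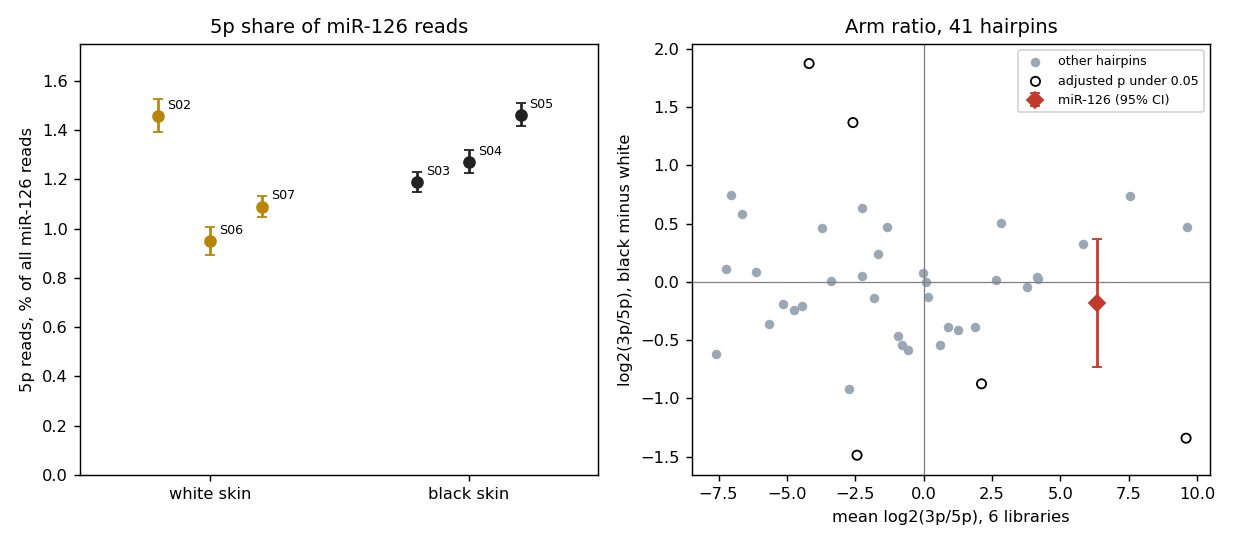
Left, the 5p arm's share of miR-126 reads (%) in each library, with 95% Wilson intervals. Right, the difference of log2(3p/5p) between black and white skin against its mean for 41 hairpins, where miR-126 lies at -0.18 with a 95% interval that includes 0.

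Among other miRNAs linked to endothelial cells, most did not pass the test between the colours. The list holds 15 names with a known part in endothelial growth or vessel formation, many of them also abundant in other cells, and 19 tested miRNAs on it besides the miR-126 arms. Of these 2 rose, 1 fell and 16 did not pass, against 3.96% called higher and 3.08% lower over all tested, and the median difference was 0.12 against 0.00. An unadjusted limma p under 0.05 was found for 10 of the 19. The share of all tested miRNAs under it was not counted, so this count cannot be read as a trait of the list. On recovered reads edgeR and limma-voom each called 2 (ssc-miR-221-3p and ssc-miR-27a). DESeq2 called 6, adding ssc-miR-24-2-5p, ssc-miR-130a, ssc-miR-210 and ssc-miR-27b-5p. Over all miRNAs edgeR called 30 of 454, limma-voom 31 of 454 and DESeq2 53 of 452. ssc-miR-27a, which promotes vessel sprouting, rose from 5851 ± 790 to 11228 ± 2880 RPM (SD, n = 3; 0.92, limma adjusted p = 0.0324). ssc-miR-24-2-5p, a minor arm of a miR-24 hairpin, rose from 84.1 ± 10.7 to 153 ± 15.8 RPM (SD, n = 3; 0.86, adjusted p = 0.0423). ssc-miR-221-3p, which restrains endothelial growth and is the miRNA named by the series, fell from 912 ± 272 to 374 ± 46.0 RPM (SD, n = 3; -1.24, adjusted p = 0.0318). The most abundant members, ssc-miR-27b-3p and ssc-miR-23a, differed by 0.10 (adjusted p = 0.754) and -0.07 (adjusted p = 0.821). Leaving out 1 library, ssc-miR-27a and ssc-miR-221-3p each kept the call without S02 and lost it without any of the others (adjusted p up to 0.116 and 0.108). ssc-miR-24-2-5p lost it in all 6 fits (adjusted p up to 0.167) and with edgeR, limma-voom, TMM factors, RLE factors or no filter (up to 0.0884).

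The change of each listed miRNA was then set against that of ssc-miR-126-3p in the same libraries, by a limma fit to the log2 ratio of each tested miRNA to ssc-miR-126-3p. For abundant miRNAs such a ratio hardly depends on the scaling of a library, while for scarce ones the 1 added to each RPM value enters it. All of these tests share the values of ssc-miR-126-3p. Over all miRNAs the change differed from that of ssc-miR-126-3p for 107 of 453 (23.6%), and was lower for 104 of them. For the endothelial-linked list it differed for 6 of 19, and for 1 without S03, 3 without S06 or S04, 5 without S05, 6 without S02 and 9 without S07. Over all miRNAs the count was 23 without S03, 46 without S06, 62 without S04, 111 without S05, 94 without S02 and 190 without S07. The list counts are to be read beside these totals. Over the 38 miRNAs of all lists, 12 were called below ssc-miR-126-3p and 1 above it. Without S03 these counts were 2 (ssc-miR-221-3p and ssc-miR-486) and 0, and without S06 6 and 0. They were 6 and 1 without S04, 12 and 0 without S05, 11 and 2 without S02 and 17 and 1 without S07. The change of ssc-miR-221-3p was below that of ssc-miR-126-3p, at -1.95 with a 95% interval of -2.61 to -1.30 (adjusted p = 0.000756), and this call held without each library in turn (adjusted p up to 0.00964). ssc-miR-27a and ssc-miR-24-2-5p were not told apart from it, at 0.21 (95% interval -0.39 to 0.80, adjusted p = 0.546) and 0.15 (-0.50 to 0.80, adjusted p = 0.679). For the abundant ssc-miR-27b-3p and ssc-miR-23a the differences were -0.61 (-1.16 to -0.07, adjusted p = 0.0843) and -0.78 (-1.37 to -0.19, adjusted p = 0.0523). Both missed the threshold here and passed it without S07 (adjusted p = 0.0204 and 0.0152) or with a pseudocount of 10 (0.0432 and 0.0206). Many other miRNAs passed there too, with 190 called without S07 and 311 with a pseudocount of 10.

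The smooth muscle miRNAs are made in the vessel wall around the endothelium and in other muscle and stromal cells, and 1 of their 4 arms, ssc-miR-143-3p, rose in black skin. The other 3 did not pass, against 3.96% called higher and 3.08% lower over all tested, and the median difference of the 4 was 0.57. The groups overlapped for ssc-miR-143-5p and ssc-miR-145-5p and not for ssc-miR-143-3p and ssc-miR-145-3p, where 13.4% of all tested miRNAs were higher in black skin without overlap. The summed level of the 4 was 26728 to 34192 RPM in white and 64998 to 84502 RPM in black libraries, of which ssc-miR-143-3p alone made up 91.1% to 96.6%. The other 3 summed to 2355 to 2391 RPM in white and 2682 to 4253 RPM in black libraries. ssc-miR-143-3p, which favours the contractile state of smooth muscle, measured 29566 RPM in S02, 24337 in S06 and 31818 in S07. In black skin it was at 81596 RPM in S03, 62317 in S04 and 65685 in S05. It rose by 1.29 (limma adjusted p = 0.00314), and the call held without each library (up to 0.0184). Its change exceeded that of ssc-miR-126-3p by 0.58 (95% interval 0.05 to 1.11), which missed the threshold (adjusted p = 0.0920). Per read of ssc-miR-143-3p there were 0.577, 0.718 and 0.743 reads of ssc-miR-126-3p in S02, S06 and S07, against 0.429, 0.495 and 0.435 in S03, S04 and S05. All black libraries were below all white ones in this ratio, with an exact permutation p of 0.1. The ratio of ssc-miR-126-3p to ssc-miR-145-5p overlapped between the groups (exact permutation p = 0.4). ssc-miR-145-5p differed by 0.36 (adjusted p = 0.433), and its difference from the change of ssc-miR-126-3p was -0.35 (-1.05 to 0.36, adjusted p = 0.409).

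Blood is another place where miR-126 is found, and none of the tested red cell and platelet miRNAs was called by limma between the colours. Of 5 names, 4 had a row and miR-223 had none. By limma 0 of these 4 were called in either direction, a count near the 3.96% higher and 3.08% lower over all tested. The median difference of the 4 was -0.49. Of the 4, 1 (ssc-miR-486) had an unadjusted limma p under 0.05, a count given without its share over all tested. ssc-miR-486 alone was called by DESeq2 (53 of 452 over all miRNAs), lower in black skin, while edgeR and limma-voom called 0 of the 4. Their summed level was 4237 to 7631 RPM in white and 3435 to 6958 RPM in black libraries, with overlap. ssc-miR-451, the leading red cell miRNA, had 3497 ± 1631 RPM in white libraries and 2163 ± 1811 RPM in black ones (SD, n = 3; -0.87, adjusted p = 0.368). A scarce miRNA of the miR-451 locus, ssc-miR-144, had the opposite sign. White libraries held 3.34 ± 2.91 RPM of it and black libraries 10.1 ± 9.64 RPM (SD, n = 3; 1.24, adjusted p = 0.284), with S05 highest. Its change minus that of ssc-miR-126-3p was 0.53 (95% interval -0.70 to 1.77, adjusted p = 0.463). ssc-miR-191, abundant in platelets and many other cells, measured 2751 ± 799 and 2489 ± 152 RPM (SD, n = 3; -0.11, adjusted p = 0.804). The change of ssc-miR-486, another red cell miRNA, was -2.39 relative to ssc-miR-126-3p (95% interval -3.43 to -1.35, adjusted p = 0.00475), in all fits that left out 1 library as well (up to 0.0368). That of ssc-miR-451 was -1.58 (-2.64 to -0.53, adjusted p = 0.0341), a call lost without S07, S03 or S04 (up to 0.175).

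Of the white blood cell miRNAs a single one passed the test. Of 6 names on the list, miR-223 had no row. Of 6 tested members 1 rose and 5 did not pass, against 3.96% called higher and 3.08% lower over all tested. The median difference of the 6 was 0.16, and the summed level was 3024 to 5965 RPM in white and 3725 to 5965 RPM in black libraries. ssc-miR-142-3p, known from cells of the blood lineage, rose by 1.96 (limma adjusted p = 0.0324), from 49.1 ± 24.2 to 190 ± 78.5 RPM (SD, n = 3), a call lost without S06, S03 or S05 (up to 0.116). It was the 1 of 38 listed miRNAs whose change was called larger than that of ssc-miR-126-3p, by 1.25 (95% interval 0.39 to 2.11, adjusted p = 0.0385), and this too was lost without S06, S03 or S05 (up to 0.171). The more abundant arm of the same hairpin, ssc-miR-142-5p, differed by 0.60 (adjusted p = 0.433). ssc-miR-146a-5p and ssc-miR-146b, induced in inflammation, are the most abundant members. They differed by 0.19 and -0.48 (adjusted p = 0.744 and 0.271). The part of blood cells in the rise of miR-126 was not tested.

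The epithelial miRNAs mark the labelled tissue, and ssc-miR-205, a keratinocyte miRNA, was abundant in all libraries. Of 10 names on the list 5 had a row, and miR-203, miR-200a, miR-200b, miR-200c and miR-141 had none. By limma 0 of the 5 with a row were called, a count near the 3.96% higher and 3.08% lower over all tested. The median difference of the 5 was -0.31. By edgeR, DESeq2 and limma-voom 0 of the 5 were called as well. Of the 5, 1 (ssc-miR-182) had an unadjusted limma p under 0.05, a count given without its share over all tested. Their summed level was 23475 to 34650 RPM in white and 18739 to 25754 RPM in black libraries, with overlap. ssc-miR-205 had 19830 ± 4277 RPM in white libraries and 14237 ± 2596 RPM in black ones (SD, n = 3; -0.47, adjusted p = 0.204), and ssc-miR-182 7040 ± 1293 and 4884 ± 751 RPM (SD, n = 3; -0.52, adjusted p = 0.138). These are the 2 lowest differences of the list. The cluster partners of ssc-miR-182 differed by -0.16 (ssc-miR-183, adjusted p = 0.677) and 0.21 (ssc-miR-96-5p, adjusted p = 0.599). Against ssc-miR-126-3p, 3 of the 5 were called lower in their change, with 0 to 5 called without 1 library (0 without S06 or S03, 2 without S04, 5 without S07). Over all miRNAs 107 of 453 differed, and 23 to 190 without 1 library. The 3 include ssc-miR-205 by -1.18 (95% interval -1.87 to -0.49, adjusted p = 0.0190) and ssc-miR-182 by -1.23 (-1.90 to -0.57, adjusted p = 0.0135), while ssc-miR-183 (-0.87, adjusted p = 0.0534) and ssc-miR-96-5p (-0.50, adjusted p = 0.207) were not called. The calls of ssc-miR-205 and ssc-miR-182 were each lost without S06 or S03 (up to 0.112 and 0.0841). Per read of ssc-miR-205 there were 0.773, 0.776 and 1.59 reads of ssc-miR-126-3p in S02, S06 and S07. In black skin this ratio was 3.05, 1.85 and 1.96 in S03, S04 and S05, above all white libraries, with an exact permutation p of 0.1. Taken to ssc-miR-486 or ssc-miR-142-3p the ratio was also free of overlap (exact permutation p = 0.1 each), and to ssc-miR-451 it overlapped (0.2). For how many of all miRNAs such a ratio separates the groups was not counted. The part of tissue composition in the rise of miR-126 was not tested.

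**Figure D5:**
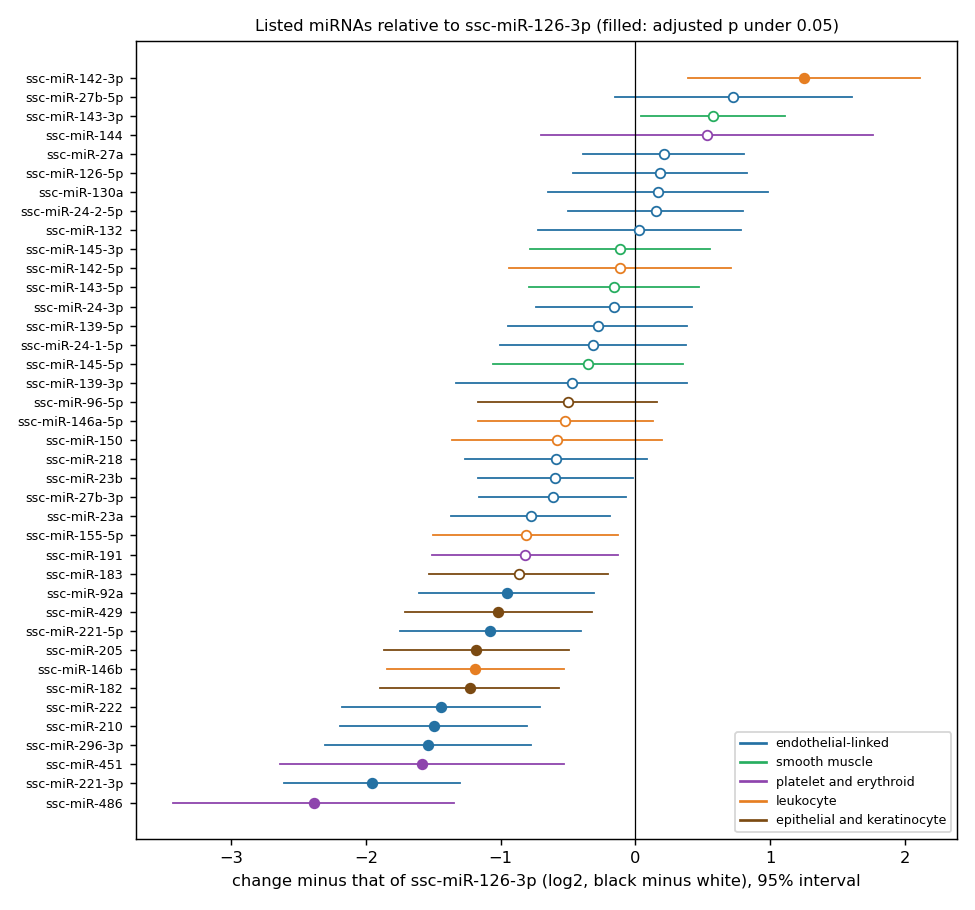
Change of each listed miRNA and of ssc-miR-126-5p minus that of ssc-miR-126-3p (log2, black minus white, horizontal axis), with 95% intervals and filled points where the adjusted p is under 0.05. Of 38 listed miRNAs besides the 5p arm, 12 are called below ssc-miR-126-3p and 1, ssc-miR-142-3p, above it, with 2 and 0 left without S03. Over all miRNAs 107 of 453 differ, and 23 without S03.

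The miRNAs most like each arm over the 6 libraries were ranked by Pearson's r of log2(RPM + 1) among 241 tested miRNAs with a name. This is a description, in which the difference between the colours enters every r. For ssc-miR-126-3p the leading ones were ssc-miR-24-2-5p (r = 0.98), ssc-miR-378b-3p (0.97), ssc-miR-132 (0.97), ssc-miR-32 (0.96) and ssc-miR-143-3p (0.95). The first of them measured 79.4 RPM in S02, 76.5 in S06 and 96.4 in S07, and 169 RPM in S03, 155 in S04 and 137 in S05, so its libraries had nearly the order of the 3p arm, with S03 highest and S07 the highest white one. With each group's mean taken out, r was 0.96 for ssc-miR-24-2-5p and 0.70 for ssc-miR-143-3p. Of these 5, ssc-miR-24-2-5p, ssc-miR-32 and ssc-miR-143-3p were called higher in black skin.

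For ssc-miR-126-5p the most alike were ssc-miR-490 (r = 0.99), ssc-miR-30e-5p (0.97), ssc-miR-135 (0.96), ssc-miR-143-3p (0.96) and ssc-miR-424-5p (0.95). Of these ssc-miR-490, ssc-miR-135 and ssc-miR-424-5p are scarce, with means of 2.80, 1.70 and 2.93 RPM. ssc-miR-143-3p was the 1 miRNA among the 5 most alike of both arms. The arms themselves had an r of 0.89 with each other, which put the 5p arm 15th among the miRNAs most like the 3p arm. With each group's mean taken out this r was 0.43. Within the white group the arms were in different order, since S06 had the lowest 5p level while its 3p level was close to that of S02.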

How the data were processed

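Small RNA of skin was sequenced in 6 libraries, 3 of white and 3 of black skin by the labels. The authors deposited 1 table of RPM values, whose columns each add up to 1e+06, which is how the unit was recognised. The submitters' processing notes name Bowtie and the build Sscrofa11.1, with no step assigned to either. How reads were counted and filtered, and against which miRNA database, is not given in the sources used here. All values (100%) were whole multiples of 1 read's worth in their library (tolerance 0.001), so whole reads were recovered, 6454685 to 10165949 per library. PCR copies are not independent molecules, and intervals on reads cover counting error only.

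Values of log2(RPM + 1) were tested with limma 3.58.1 (R 4.3.3), its variance prior following the mean level, and p-values were adjusted by Benjamini-Hochberg over the 454 miRNAs that edgeR 4.0.16's filterByExpr kept (minimum count 10, minimum total 15). A fold change on this scale understates that of scarce miRNAs. Arm ratios were fitted without that trend, over hairpins whose arms share a name. Single values had two-sided exact permutation tests. The code was checked on simulated libraries, whose changes were more numerous than the calls here and larger than those of miR-126. That check does not bear on calls near the threshold. Alternatives covered pseudocount, filter, scaling, test (edgeR, DESeq2 1.42.0 and limma-voom on recovered reads) and each library left out. Of the reported settings, the ratio fit with a trend, the alternatives of the fits relative to ssc-miR-126-3p and those of the listed miRNAs were chosen after seeing the data.

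The members and lists were chosen with earlier results of these data known. List names were matched ignoring the arm and the copy number. Of each list the text names called members and the 2 most abundant, with the 5 miRNAs most like each arm, its neighbours in abundance and the neighbours of miR-126 in arm ratio. ssc-miR-486, ssc-miR-144, ssc-miR-142-5p, ssc-miR-143-5p, ssc-miR-145-3p, ssc-miR-183, ssc-miR-96-5p, ssc-miR-130a, ssc-miR-210, ssc-miR-27b-5p, miR-10a, miR-374a and miR-129a were named after their values were seen. No row had values identical to an arm of miR-126. Mature sequences are not shown, and no genome sequence was used here. All 6 columns were used and 0 left out.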

Additional observations from a re-analysis of the deposited data

How the results depend on the processing

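The differences of both arms were above 0 in all 11 other settings and all 6 fits that left out 1 library. As the groups did not overlap for either arm, leaving out 1 library could not reverse the sign. For ssc-miR-126-3p (0.71) the limma call was lost with a pseudocount of 10 (0.71, adjusted p = 0.0555), TMM factors (0.72, 0.0705), RLE factors (0.69, 0.0694), edgeR (0.70, 0.0795), DESeq2 (0.67, 0.129) and limma-voom (0.70, 0.0690), and it was kept in the other 5. For ssc-miR-126-5p (0.89) it was lost with no filter (0.89, 0.0852), edgeR (0.87, 0.0528) and limma-voom (0.88, 0.0501), and kept in the other 8. Scaled to named miRNAs alone, the differences were 0.62 and 0.81. Leaving out 1 library, they ran from 0.63 to 0.86 and from 0.69 to 1.01, and each arm kept its call in 1 of 6 fits. The arm ratio stayed under 0 and without a call in all 11 fits (-0.36 to -0.05), and the log2 fold of the summed arms ran from 0.62 to 0.87. The count of called miRNAs was 32, 53 with DESeq2 and 7 to 41 without 1 library. The count with a change unlike that of ssc-miR-126-3p was 107, and 23 to 190 without 1 library. It was 311 with a pseudocount of 10, and the cause was not tested. No paired analysis was possible because the labels name no animal, so whether black and white skin came from the same animals is not known. With 3 libraries a group, precision is limited by their spread and not by depth.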
